A study of Canis lupus familiaris with 4 samples.

Results

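Chromosome 29 of the dog carried 535 of the 59081 accessible peaks measured by ATAC-seq in MDCKII cells, and all 535 are described here. The members were chosen by position, as every peak on that chromosome (CanFam3.1), but the chromosome itself was chosen from the same data because the median fold of its peaks between the states compared was the highest of the 38 numbered chromosomes and its peaks were sparse. Folds between the states are therefore given as a description, with no test of the chromosome against the others. MDCKII (Madin-Darby canine kidney, type II) is an established epithelial line of dog kidney that forms polarised monolayers. The mature group held monolayers of wild-type MDCKII grown for 7 d to full maturity (n = 2 libraries, A and B), and the reseeded group held cells of such monolayers that were detached and seeded again for 2 h (n = 2 libraries, A and B). Whether A and B were separate cultures is not stated, and the spread between them may be technical. All sample names of one group open with the same code, and that of the other group is different, so reseeding cannot be told apart from anything processed by code. As no peak was placed on a gene, markers of kidney epithelium were not checked.

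In ATAC-seq the transposase Tn5 cuts and tags DNA that is not wrapped tightly by nucleosomes, so that promoters, enhancers and other regulatory elements appear as peaks of counts. Dog autosomes are acrocentric, and chromosome 29 is among the smaller ones. In the dog assembly UU_Cfam_GSD_1.0, which is another build than the one of the peaks, the genes named on this chromosome include several that are known from kidney epithelium: CA2, a carbonic anhydrase that neighbours its relatives CA1, CA3 and CA13, CALB1, the calcium-binding protein calbindin of the distal tubule, SLC26A7, an anion exchanger, and ATP6V0D2, a subunit of the proton pump. The fatty acid binding genes FABP4, FABP5, FABP9 and FABP12 also stand side by side there. Because the builds differ, peaks were not assigned to these genes.

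Over all peaks mature A and B had 8759513 and 6253706 counts, and reseeded A and B 16906566 and 24015663. Peaks of chromosome 29 held 59284 of these counts in mature A, 41631 in mature B, 147240 in reseeded A and 210444 in reseeded B. As a share of the counts on numbered chromosomes this was 0.693% in mature A (95% exact binomial interval 0.688 to 0.699), 0.683% in mature B (0.676 to 0.689), 0.888% in reseeded A (0.884 to 0.893) and 0.894% in reseeded B (0.890 to 0.898). Both reseeded libraries thus gave a larger share of their counts to this chromosome than either mature library. No peak of chromosome 29 was at 0 counts in any library. The intervals cover counting error only.

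Most peaks of chromosome 29 differed between the states, and gains outnumbered losses. Accessibility is given as CPM, counts scaled by library total and trimmed-mean factors, and folds are reseeded over mature on the log2 scale. The median over the 535 peaks was 8.70 CPM in mature A, 9.07 in mature B, 12.1 in reseeded A and 12.2 in reseeded B. Peaks ran from 0.464 to 85.9 CPM in mature A, from 0.810 to 76.0 in mature B, from 0.117 to 68.6 in reseeded A and from 0.369 to 70.3 in reseeded B. The reseeded medians lay above both mature medians, and so did the upper quartiles, at 17.4 and 17.1 CPM in mature A and B and 20.8 and 20.8 CPM in reseeded A and B. The highest and the lowest value of a library stood higher in both mature libraries than in either reseeded one. The median log2 fold was 0.76, with quartiles of -0.34 and 1.68 and extremes of -5.30 and 3.80.

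All 535 peaks passed the count filter, and 471 (88.0%) were called at an adjusted p under 0.05 by edgeR's quasi-likelihood test, beside 84.1% of all 59076 peaks tested in the series. Of these, 314 (58.7%) were higher after reseeding, beside 42.3% of all tested peaks, and 157 (29.3%) were lower, beside 41.8%. At least 2-fold gains were found at 227 peaks (42.4%, beside 26.9%) and at least 2-fold losses at 53 (9.91%, beside 15.0%). At least 4-fold gains comprised 105 peaks (19.6%, beside 10.1%) and at least 4-fold losses 29 (5.42%, beside 6.04%). The groups did not overlap in CPM at 495 peaks (92.5%), beside 91.5% in the series. As the chromosome was chosen for this contrast, these shares describe it and support nothing further. Under loess offsets, which let the scaling follow mean accessibility, 134 peaks were at least 2-fold higher and the median log2 fold was 0.18.

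The peaks that gained were mostly weak in mature cells, here as on the other numbered chromosomes. The table holds called peaks, so a peak that was weak in one state is in it through its level in the other, and this pattern follows in part from how the peaks were selected. The 227 peaks at least 2-fold higher had median levels of 3.13 and 3.73 CPM in mature A and B and 13.0 and 13.2 CPM in reseeded A and B. The 105 peaks at least 4-fold higher had medians of 1.74 and 2.59 CPM in the mature and 12.1 and 12.7 CPM in the reseeded libraries. Losses went the other way, from levels above the chromosome's median: the 53 peaks at least 2-fold lower had medians of 15.5 and 16.2 CPM in mature and 4.38 and 3.90 CPM in reseeded cells. The remaining 255 peaks had medians of 14.5 and 14.7 CPM in mature and 13.7 and 13.6 CPM in reseeded cells. Mean mature accessibility was under 5 CPM at 163 peaks, 150 of which (92.0%) gained at least 2-fold, beside 88.5% of such peaks on the other numbered chromosomes. It was 20 CPM or more at 106 peaks, 2 of which gained (1.89%, beside 1.37%) and 19 lost (17.9%, beside 20.2%) at least 2-fold. No peak of chromosome 29 was under 5 CPM in both groups, and 33 on the other numbered chromosomes were, as peak calling leaves few such peaks.

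**Figure D1:**
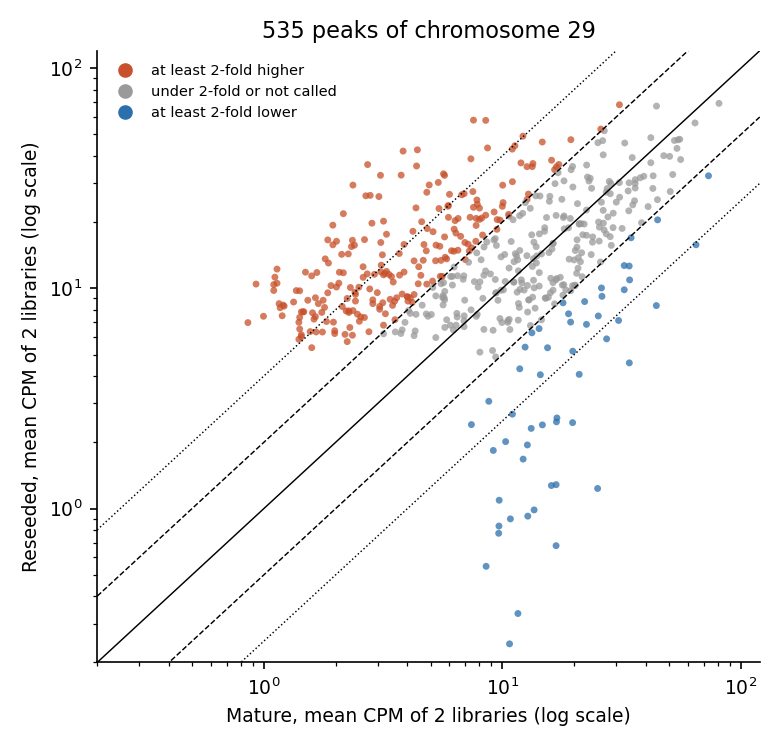
Each point is a peak of chromosome 29, with the mean CPM of the 2 mature libraries on the x axis and of the 2 reseeded libraries on the y axis, both on log scales; the solid line marks equality, dashed lines 2-fold and dotted lines 4-fold differences. The 227 peaks at least 2-fold higher lie mostly at low mature levels, the 53 at least 2-fold lower at higher ones, and the corner of low values in both groups is empty, as the table holds called peaks.

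Summed over the chromosome, the gain was smaller than the median of its peaks. The sum of CPM was 6876 and 6743 in mature A and B and 8592 and 8631 in reseeded A and B, a log2 ratio of the group means of 0.34. Peaks at least 2-fold higher went from 1013 and 1169 CPM in mature to 3830 and 3882 CPM in reseeded libraries, an addition of 2766 CPM between the group means. Peaks at least 2-fold lower fell from 1109 and 1115 CPM to 301 and 306 CPM, and the remaining 255 peaks held 4754 and 4459 CPM in mature and 4460 and 4442 CPM in reseeded libraries. The gained peaks thus added more than the chromosome's net change of 1802 CPM, and the other peaks offset part of it. The strongest 10% of peaks (54) in each state held 32.2% of the chromosome's accessibility in mature and 26.5% in reseeded cells.

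Among the 38 numbered chromosomes, chromosome 29 had the second fewest peaks and, with 12.8 peaks per Mb, the second lowest density after chromosome 19 (10.7 per Mb). Its median log2 fold of 0.76 was followed by 0.51 on chromosome 32 and 0.44 on chromosome 33, and was -0.005 over all peaks of the other numbered chromosomes. Its share of peaks at least 2-fold higher, 42.4%, was followed by 38.6% on chromosome 32 and 37.4% on chromosome 36, and its log2 ratio of summed CPM, 0.34, by 0.24 on each of these. The upper quartile of folds, 1.68, lay close to the 1.64 of chromosome 32, and the lower quartile, -0.34, close to its -0.39, so these chromosomes differed more in the middle of the distribution than at its sides. Peaks that fell at least 2-fold made up 9.91% on chromosome 29, 9.44% on chromosome 32 and 13.7% on chromosome 19. In mature cells the median peak of chromosome 29, at 9.21 CPM, was the third lowest of the numbered chromosomes. In reseeded cells, at 11.9 CPM, it was the seventh lowest.

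**Figure D2:**
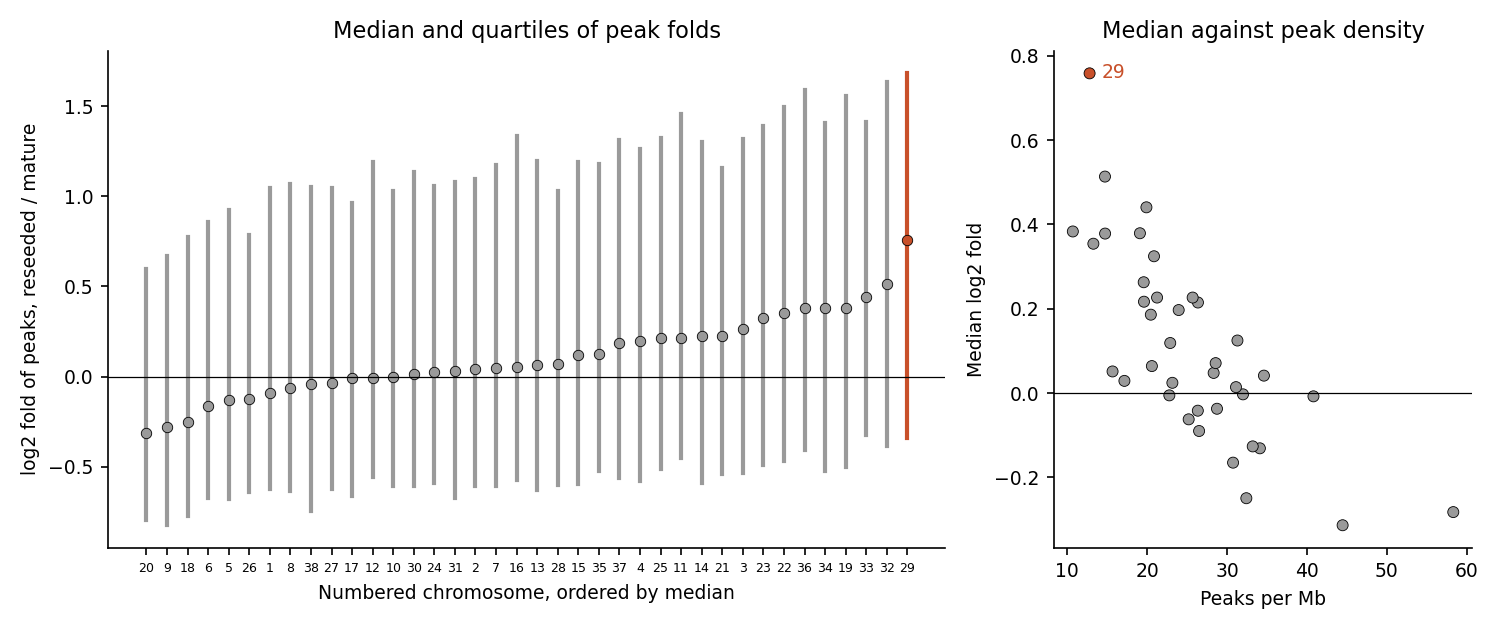
The left panel plots the median (point) and quartiles (bar) of the log2 fold of peaks, reseeded over mature, for each of the 38 numbered chromosomes, and the right panel the median against peaks per Mb, one point per chromosome; chromosome 29 is coloured. Chromosome 29 has the highest median, 0.76, while its quartiles, -0.34 and 1.68, overlap those of the other chromosomes widely.

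In steps of 1 Mb the chromosome alternated between stretches rich in peaks and empty ones. Of 42 steps, numbered from the start of the chromosome, 35 held peaks and 7 held none. Another 8 held 1 to 4 peaks, and 27 held at least 5 and were fitted on their summed counts. The largest number was 41 peaks, in step 17. The longest stretch without a peak spanned 2755 kb, from 28923029 to 31678279, and the peaks on either side of it had log2 folds of -0.54 and -0.27. In all, 10 stretches of over 1 Mb without a peak covered 15.5 Mb.

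Gained peaks were found in most steps, but few steps gained 2-fold in sum. Step sums are scaled with factors of their own fit, and so differ slightly from sums of single-peak CPM. Of the 27 fitted steps, 21 were called by edgeR's quasi-likelihood test, beside 86.9% of all 1803 windows of the series. Higher accessibility was called in 15 steps, beside 44.3% of all windows, and lower accessibility in 6, beside 42.6%. At least 2-fold gains were found in 3 steps, beside 2.50%, and at least 2-fold losses in 0 steps, beside 1.33%, the lowest log2 fold being -0.69. Scaling shifted this split: by library size alone 19 steps were higher and 3 lower, with the median of all windows moving from 0.02 to 0.13, and under loess offsets 13 were higher and 11 lower. In 25 of the 27 steps the median of the single peaks lay above the fold of their summed counts. Peaks with 2-fold gains or more were found in 33 of the 35 steps that held peaks, and peaks with losses of that size in 19, with both in 18. As nearly all steps with peaks held such a gain, the overlap with losses follows from that.

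The first part of the chromosome gained most. In steps 1 to 14 the 196 peaks had a median log2 fold of 1.02, with 50.5% gaining and 6.63% losing at least 2-fold. The 194 peaks of steps 15 to 28 had a median of 0.63, with 41.8% and 7.73%. The 145 peaks of steps 29 to 42 had a median of 0.27, with 32.4% and 17.2%. Median mature levels followed the opposite order, at 7.25 and 7.61 CPM in A and B in steps 1 to 14, 9.10 and 8.99 CPM in steps 15 to 28 and 11.5 and 12.1 CPM in steps 29 to 42. Median reseeded levels were closer together, at 13.0 and 13.0, 11.5 and 12.1, and 12.0 and 11.9 CPM.

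**Figure D3:**
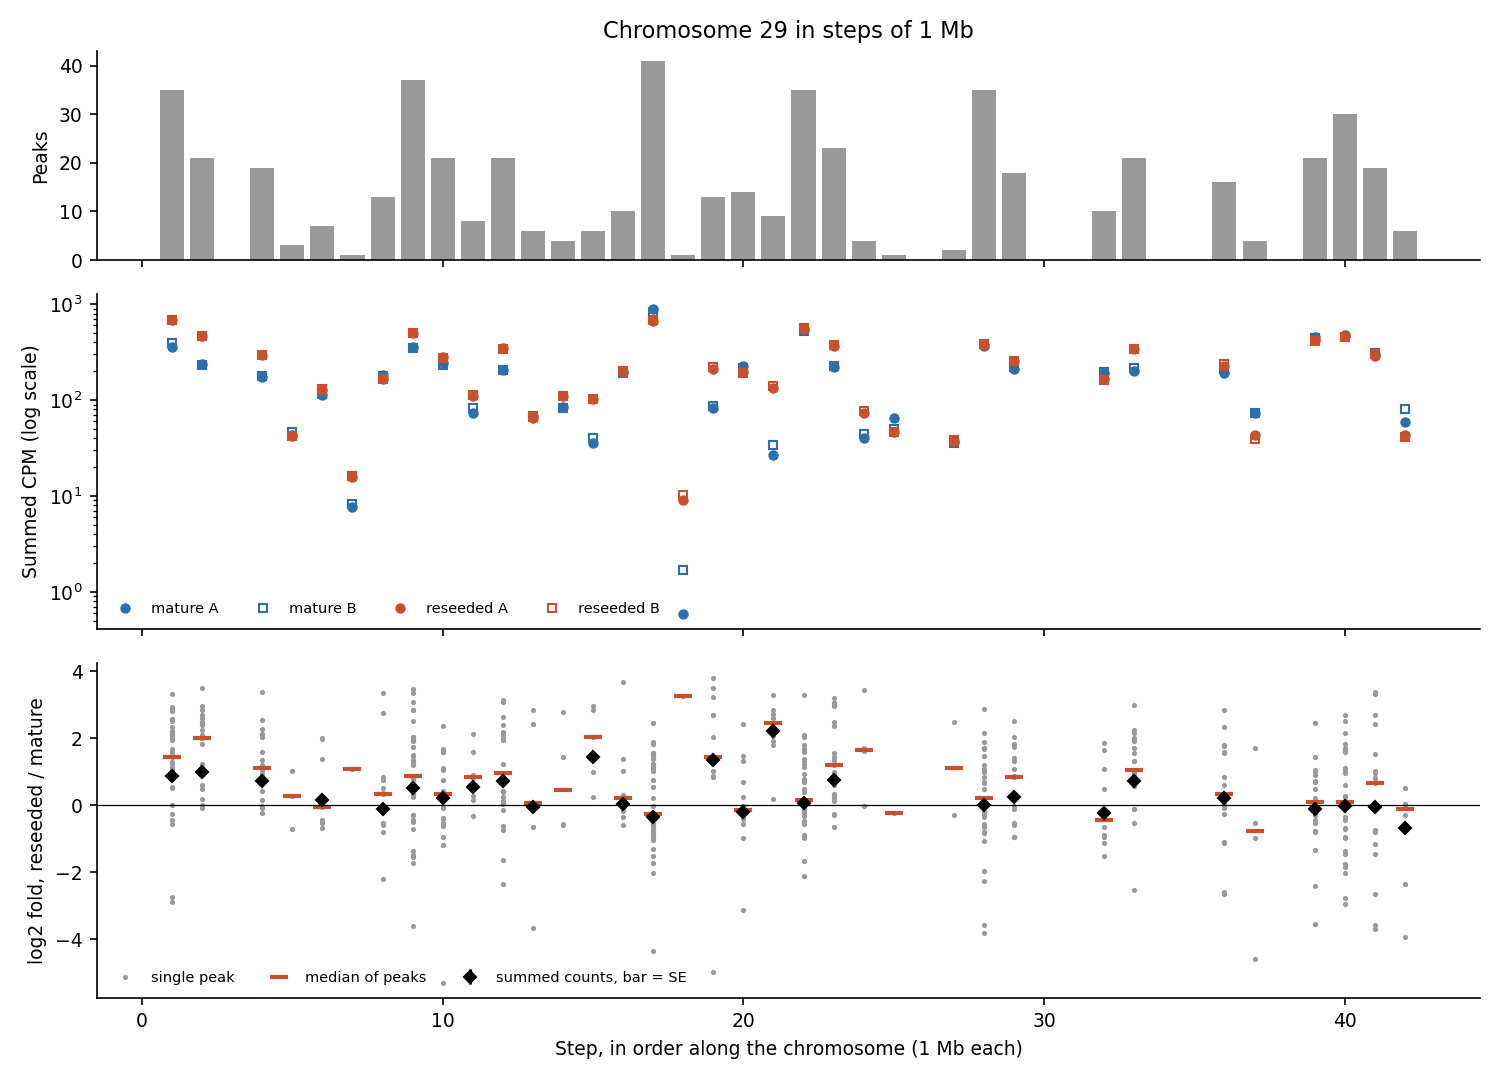
Steps of 1 Mb are plotted in order along chromosome 29, with the number of peaks (top), the summed CPM of each of the 4 libraries on a log scale (middle) and the log2 fold, reseeded over mature (bottom: grey points, single peaks; red dashes, their median; diamonds, summed counts with bars of 1 SE where a step held at least 5 peaks). Steps 15, 19 and 21 stand highest among the diamonds, step 42 lowest, and single peaks spread on both sides of 0 in most steps.

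The 3 fitted steps with the highest folds lay in the middle of the chromosome and held 6 to 13 peaks. Step 21, from 20000001 to 21000000, held 9 peaks that summed to 26.5 and 34.0 CPM in mature A and B and 134.9 and 140.8 CPM in reseeded A and B, a log2 fold of 2.22 (SE 0.09). The libraries of each state were far from those of the other, and 8 of the 9 peaks were at least 2-fold higher. Step 15, from 14000001 to 15000000, held 6 peaks that rose from 36.0 and 40.3 CPM to 103.8 and 102.6 CPM, a log2 fold of 1.45 (SE 0.06), with 4 of the 6 at least 2-fold higher. Step 19, from 18000001 to 19000000, held 13 peaks that rose from 82.5 and 87.2 CPM to 211.6 and 219.7 CPM, a log2 fold of 1.35 (SE 0.05). Of its 13 peaks 10 gained at least 2-fold and 1 lost that much, with a log2 fold of -4.99. These 3 steps held 28 of the 535 peaks, and without them the median log2 fold of the chromosome was 0.67.

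Peak-rich steps differed among themselves. Step 1, from 1 to 1000000, held 35 peaks that rose from 356.9 and 390.1 CPM to 683.7 and 691.3 CPM, a log2 fold of 0.89 (SE 0.04), and 25 of them were at least 2-fold higher. Step 2 added 21 peaks that went from 236.5 and 234.9 CPM to 467.4 and 470.0 CPM, a log2 fold of 0.99 (SE 0.02). Step 9, from 8000001 to 9000000, held 37 peaks that rose from 354.8 and 346.9 CPM to 502.6 and 501.7 CPM, a log2 fold of 0.52 (SE 0.02), with 18 peaks up and 5 down by at least 2-fold. The first 2 Mb therefore gained close to 2-fold in sum although it was among the denser stretches of the chromosome.

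Step 17, from 16000001 to 17000000, had the most peaks, 41, and lost accessibility. Its sum fell from 885.9 and 823.6 CPM to 663.7 and 680.4 CPM, a log2 fold of -0.35 (SE 0.03), although 14 of its peaks gained and 6 lost at least 2-fold. Step 42, from 41000001 to 42000000 at the far end, had the lowest fold: its 6 peaks went from 58.6 and 80.4 CPM to 43.5 and 41.4 CPM, a log2 fold of -0.69 (SE 0.13). The mature libraries differed from each other there by more than the reseeded ones. Step 32, from 31000001 to 32000000, next to the longest stretch without peaks, went from 193.5 and 195.6 CPM to 167.5 and 162.5 CPM over 10 peaks, a log2 fold of -0.24 (SE 0.03).

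Of the steps under 5 peaks, which were not fitted, step 18 held a single peak, from 17255926 to 17256426, with 0.580 and 1.62 CPM in mature A and B and 9.22 and 10.3 CPM in reseeded A and B. Step 25 held a single peak as well, from 24960576 to 24961076, with 63.1 and 47.8 CPM in mature and 47.5 and 47.6 CPM in reseeded libraries. A lone peak of this chromosome could therefore be near the bottom or near the top of its range in mature cells.

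The 10 largest gains on the chromosome, among called peaks whose mean count reached 50 and whose groups did not overlap, started from 5 to 28 counts in each mature library. They lay in 8 steps from step 2 to step 41. The peak from 18985446 to 18985946 had 2.20 and 3.24 CPM in mature A and B and 34.2 and 38.8 CPM in reseeded A and B, a log2 fold of 3.80 (SE 0.16), or 14.0-fold on pooled counts (95% exact counting interval 10.2 to 19.8). The peak from 15783868 to 15784368 had 1.97 and 2.75 CPM in mature and 29.5 and 29.4 CPM in reseeded libraries, a log2 fold of 3.67 (SE 0.17). The peak from 1140120 to 1140620 had 3.13 and 4.54 CPM in mature and 41.4 and 42.6 CPM in reseeded libraries, a log2 fold of 3.50 (SE 0.14), and was the strongest of the 10 in reseeded cells. All 3 were over 9-fold higher in each reseeded library than in either mature one.

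The other 7 had log2 folds of 3.35 to 3.49, and those of 6 with fewer counts were smaller under loess offsets. The peak from 18449532 to 18450032, in the same step as the first, went from 0.812 and 1.46 to 12.0 and 12.5 CPM, with a log2 fold of 3.49 (SE 0.26). Step 9 held a pair of them: the peak from 8846627 to 8847127 went from 1.04 and 0.810 to 10.2 and 10.7 CPM, with a log2 fold of 3.46 (SE 0.28), and the peak from 8460636 to 8461136 from 1.62 and 2.27 to 19.5 and 19.2 CPM, with a log2 fold of 3.35 (SE 0.20). The peak from 23757325 to 23757825, which had only 3 other peaks within 500 kb, went from 1.39 and 2.92 to 20.8 and 22.8 CPM, with a log2 fold of 3.43 (SE 0.20). Local density among the 10 ranged from this value to 38 other peaks, so the largest gains were found both in near isolation and in dense stretches. The peak from 40431226 to 40431726, near the far end, went from 3.25 and 2.92 to 32.9 and 32.3 CPM, with a log2 fold of 3.39 (SE 0.15).

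The remaining 2 had 16 and 15 pooled mature counts. The peak from 3836580 to 3837080 went from 0.928 and 1.30 to 10.7 and 11.8 CPM, with a log2 fold of 3.38 (SE 0.26). The peak from 7977612 to 7978112 went from 0.580 and 1.62 CPM, which were 5 and 10 counts, to 10.4 and 10.4 CPM, with a log2 fold of 3.35 (SE 0.29). Leaving out mature A turned its fold of 10.2 into 6.40, and leaving out mature B into 17.6, because the mature libraries differed from each other. Under loess offsets the log2 folds of the peaks at 7977612, 8846627, 3836580 and 18449532 were 1.10, 1.15, 1.30 and 1.497, and those of the peaks at 8460636 and 23757325 were 2.48 and 2.79. The 4 gains with the most reseeded counts had 3.31 to 3.72 under these offsets.

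**Figure D4:**
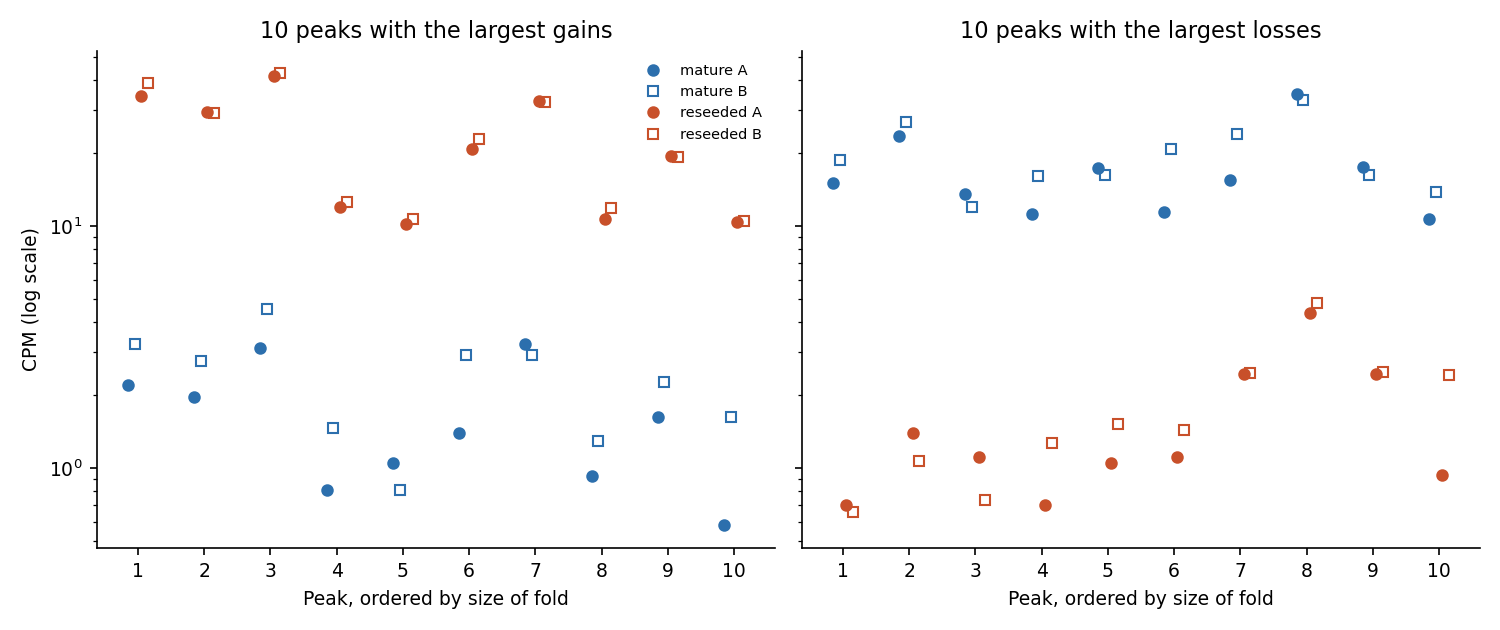
CPM on a log scale is plotted for each of the 4 libraries at the 10 peaks of chromosome 29 with the largest gains (left) and the 10 with the largest losses (right), ordered by the size of the fold. Only called peaks whose mean count reached 50 and whose groups do not overlap were ranked, which left out 7 called losses, and mature and reseeded libraries are thus separate at all 20 peaks, and at the gained peaks the mature libraries are spread more widely on this scale than the reseeded ones.

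The 10 largest losses by the same rule, which left out 7 called losses with a mean count under 50 and log2 folds as low as -5.30, ended near the low levels at which the gains began. The peak from 36585197 to 36585697 had 15.0 and 18.6 CPM in mature A and B and 0.700 and 0.656 CPM in reseeded A and B, a log2 fold of -4.60 (SE 0.27). It had 3 other peaks within 500 kb and was the only one of step 37 to lose at least 2-fold. The peak from 16100745 to 16101245, in the dense step 17, had 23.4 and 26.7 CPM in mature and 1.40 and 1.07 CPM in reseeded libraries, a log2 fold of -4.36 (SE 0.19). The peak from 12071127 to 12071627 had 17.4 and 16.2 CPM in mature and 1.05 and 1.52 CPM in reseeded libraries, a log2 fold of -3.67 (SE 0.22). In none of these 3 did the libraries of a state come near those of the other.

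Step 28 held 2 of the losses. The peak from 27959456 to 27959956 went from 13.6 and 12.0 to 1.11 and 0.738 CPM, with a log2 fold of -3.83 (SE 0.29). The peak from 27945580 to 27946080 went from 11.4 and 20.7 to 1.11 and 1.44 CPM, with a log2 fold of -3.58 (SE 0.27). Of the remaining 5, 3 lay in steps 40 and 41 and 2 in step 1. The peak from 40127743 to 40128243 went from 11.1 and 16.0 to 0.700 and 1.27 CPM, with a log2 fold of -3.69 (SE 0.29). The peak from 39594809 to 39595309 went from 15.4 and 24.0 to 2.45 and 2.46 CPM, a log2 fold of -2.96 (SE 0.20), and the peak from 39815731 to 39816231 from 17.5 and 16.2 to 2.45 and 2.50 CPM, a log2 fold of -2.77 (SE 0.18).

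The losses of step 1 stood within a stretch that gained. The peak from 433476 to 433976 went from 34.9 and 33.2 to 4.38 and 4.80 CPM, with a log2 fold of -2.88 (SE 0.12), and was the strongest of the 10 in mature cells. The peak from 761963 to 762463 went from 10.7 and 13.8 to 0.934 and 2.42 CPM, with a log2 fold of -2.76 (SE 0.28). Here the reseeded libraries differed from each other, with 16 and 59 counts, and the loss of 6.75-fold was 12.9-fold without reseeded B. Under loess offsets 8 of the 10 losses were over 1.5 times larger, at log2 folds of -6.70 to -3.50, and those at 433476 and 39594809 had -2.89 and -3.52.

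The strongest peaks of the chromosome changed little in comparison. The 5 with the highest mean CPM lay in steps 2, 17, 22, 25 and 41. The peak from 16235717 to 16236217 had 85.9 and 76.0 CPM in mature A and B and 68.6 and 69.8 CPM in reseeded A and B, a log2 fold of -0.23 (SE 0.07). The peak from 21810152 to 21810652 had 69.5 and 59.0 CPM in mature and 56.9 and 55.9 CPM in reseeded libraries, a log2 fold of -0.20 (SE 0.07). The lone peak of step 25, whose levels are given above, had a log2 fold of -0.25 (SE 0.08). At these 3 the lower mature library was within 10 CPM of the reseeded ones, and their calls were lost without mature A, when the log2 folds were -0.13, -0.066 and -0.0066, and without reseeded A, when they were -0.22, -0.21 and -0.23. The call at 21810152 was also lost without reseeded B (-0.19), by DESeq2's Wald test (-0.19) and after thinning (-0.18), and that at 24960576 by DESeq2's Wald test (-0.23) and after thinning (-0.22). Under loess offsets all 3 changed sign, to 0.16, 0.14 and 0.065, and the first 2 of these were called as higher.

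Of the other strong peaks, the one from 1327659 to 1328159 had 44.2 and 44.4 CPM in mature and 68.5 and 66.0 CPM in reseeded libraries, a log2 fold of 0.60 (SE 0.07). The one from 40375381 to 40375881 had 73.4 and 72.9 CPM in mature and 32.1 and 32.8 CPM in reseeded libraries, a log2 fold of -1.17 (SE 0.07), in a step that also held one of the 10 largest gains. The 3 peaks nearest to equality among the strongest 25% by mean CPM were not called. They were the peak from 1156583 to 1157083 (log2 fold 0.01, SE 0.10), with 31.2 and 23.8 CPM in mature and 29.4 and 27.4 CPM in reseeded libraries, the peak from 40435961 to 40436461 (0.01, SE 0.10), with 22.8 and 22.2 CPM in mature and 21.9 and 23.4 CPM in reseeded libraries, and the peak from 307568 to 308068 (0.02, SE 0.11), with 18.7 and 17.7 CPM in mature and 19.8 and 17.5 CPM in reseeded libraries. Each lay in a step in which other peaks differed by over 8-fold.

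Local density did not order the folds within the chromosome as it did elsewhere. Density was taken as the number of other peaks within 500 kb either side. It had a median of 24 and a maximum of 45 on chromosome 29, against a median of 46 on the other numbered chromosomes, where 45.6% of peaks had at least 50. On the other chromosomes the median log2 fold was 0.51 at 0 to 9 other peaks, 0.36 at 10 to 19, 0.38 at 20 to 29, 0.19 at 30 to 49 and -0.24 at 50 or more. On chromosome 29 it was 0.24 at 0 to 9 (63 peaks), 0.88 at 10 to 19 (140 peaks), 0.53 at 20 to 29 (132 peaks) and 0.86 at 30 to 49 (200 peaks). Its most isolated peaks thus had a lower median than those of other chromosomes, and 23 of 35 chromosomes with at least 20 such peaks had a higher one. At 10 to 19 and at 30 to 49 other peaks, none of 37 chromosomes had a higher median than chromosome 29, and at 20 to 29 other peaks 9 of 37 did.

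Peaks with fewer than 50 others nearby made up 31062 of the peaks on the other numbered chromosomes and had a median log2 fold of 0.28. Over these peaks alone the next highest chromosome after chromosome 29 was again chromosome 32, with a median of 0.52. Weighted to the density of chromosome 29, the other chromosomes had 34.3% of peaks gaining and 12.3% losing at least 2-fold, beside 42.4% and 9.91% on chromosome 29. Its median was also the higher one in each of 4 equal classes of mean CPM over all numbered chromosomes, groups weighted equally: 1.51 against 0.95 in the lowest class, 0.49 against -0.016 in the next, 0.25 against -0.13 in the third and -0.12 against -0.31 in the highest. The lowest class held 32.9% of the peaks of chromosome 29 and the highest 19.1%. Density and mean CPM come from the same peak set as the folds, so these values describe the chromosome and do not test it.

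**Figure D5:**
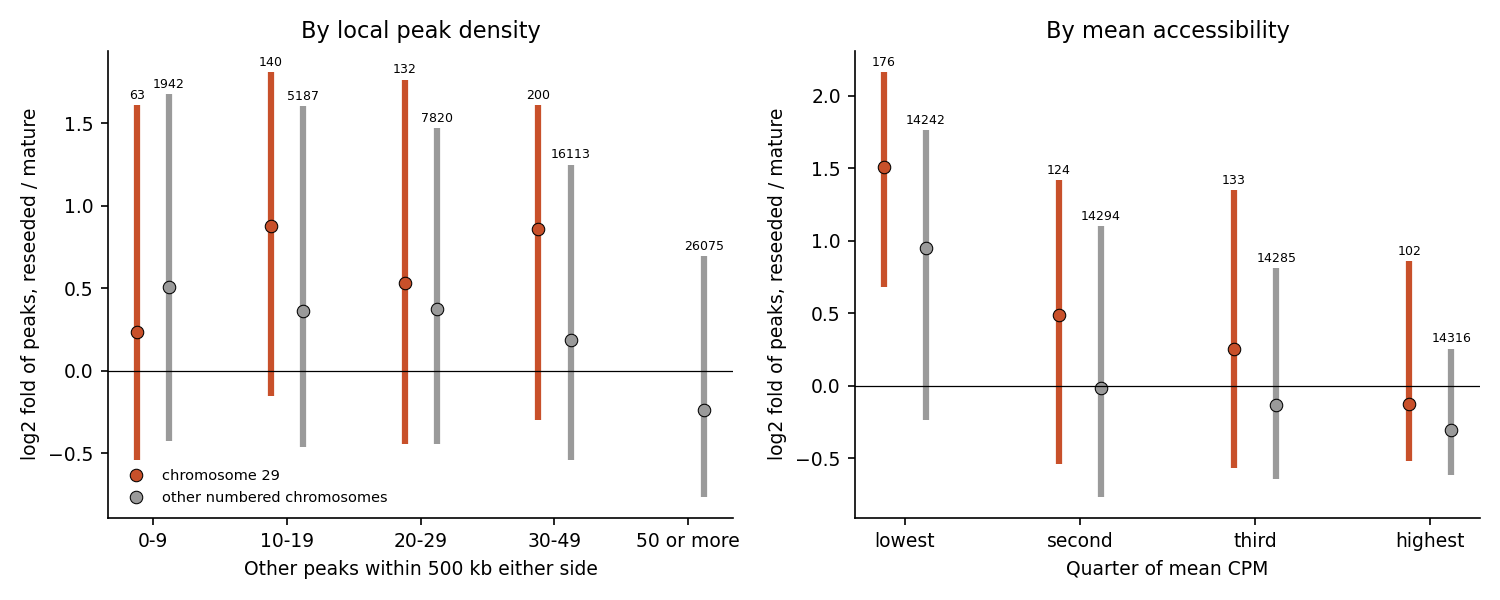
Medians (points) and quartiles (bars) of the log2 fold of peaks, reseeded over mature, are plotted for chromosome 29 and for the other numbered chromosomes by number of other peaks within 500 kb (left) and by class of mean CPM (right), with the number of peaks above each bar. Chromosome 29 lies above the others in every class it fills except that of 0 to 9 neighbours, where its median is 0.24 against 0.51, and its bars overlap theirs in every class.

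Runs of neighbouring gains were more numerous and longer than runs of losses. Of at least 3 called peaks in 1 direction, 42 runs of gains held 224 of the 314 called gains (71.3%) and 15 runs of losses held 56 of the 157 called losses (35.7%). With a bound of 2-fold, 19 unbroken runs of at least 3 neighbouring peaks that were all at least 2-fold higher held 91 of the 227 such peaks, and no run of 3 was at least 2-fold lower throughout. Runs follow the order of peaks with no limit on distance, and 1 run of 3 gained peaks, from 32715246 to 35063668, spanned 2348 kb. The longest run at that bound, 11 peaks from 18415378 to 19059864, had a median log2 fold of 2.03, with medians of 2.20 and 3.24 CPM in mature A and B and 13.7 and 15.0 CPM in reseeded A and B. A run of 8 peaks from 20789712 to 20913618 made up nearly all of step 21, with medians of 2.26 and 3.32 CPM in mature and 12.5 and 13.5 CPM in reseeded libraries. Another of 8 peaks, from 478559 to 583076 in step 1, went from 5.34 and 7.61 to 21.5 and 22.1 CPM. Counting every called gain, the longest run was 17 peaks from 478559 to 742903, with a median log2 fold of 1.43, and counting every called loss it was 8 peaks from 27868152 to 28002034, with a median of -1.01. Gains were also more frequent than losses on this chromosome, and the part of that difference in the number of runs was not tested.

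The correlation of folds between adjacent peaks fell with distance. Across the 52 pairs with midpoints up to 1 kb apart Pearson's r was 0.595, and it was 0.232 across 95 pairs 1 to 5 kb apart, 0.223 across 140 pairs 5 to 20 kb apart and 0.107 across 182 pairs 20 to 100 kb apart. Across 65 pairs more than 100 kb apart it was -0.119. On the other numbered chromosomes the values were 0.598, 0.318, 0.192, 0.128 and 0.0839. All pairs come from the same 4 libraries and share peaks with the next pair, so these values are a description.

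The mature libraries differed from each other at the gained peaks. Over all 535 peaks the median log2 ratio of mature B to mature A was 0.05, with an SD of 0.44, and that of reseeded B to reseeded A was 0.01, with an SD of 0.20. Where the gain was at least 4-fold (105 peaks) the mature ratio was 0.48, and mature B was above mature A at 86 of them. At the 255 peaks that differed by less than 2-fold or were not called it was -0.06, and mature B was above at 100. At the 53 peaks at least 2-fold lower the mature ratio was -0.07, and at the 29 at least 4-fold lower it was 0.19. On the other numbered chromosomes the ratio at peaks at least 4-fold higher was 0.36. The part of this difference in the gains was not tested. By letter, the median log2 fold of CPM + 0.5 was 0.72 between the A libraries and 0.65 between the B libraries.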

How the data were processed

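Per the labels' protocols, nuclei were transposed with Tn5 and the libraries amplified by PCR. The authors' deposited table holds raw counts per peak, not normalized, for 59081 peaks of 501 bp in 4 libraries. Bowtie2, MACS2 and CanFam3.1 are named in the submitters' processing notes. The sources used here do not give their settings, the treatment of duplicate or multiply aligned reads, or what was counted per peak. Chromosomes were read from sequence accessions, and positions count from 1.

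The analysis used edgeR 4.0.16 in R 4.3.3: filterByExpr (59076 peaks kept), trimmed-mean (TMM) factors and the quasi-likelihood test, reseeded against mature, fitted over all peaks with Benjamini-Hochberg adjustment and no block. Sums over windows of 1 Mb with at least 5 peaks by midpoint were fitted likewise. SEs come from the fold and its F statistic. A count of 3, taken as the floor, equals 0.348 and 0.486 CPM in mature A and B and 0.175 and 0.123 CPM in reseeded A and B. On simulated counts for 59081 peaks the test found 66 of 100 peaks altered 1.5-fold, 96 of 100 altered 2-fold and 7 unaltered ones, and for 1803 windows 20 of 20 altered 1.3-fold. The simulation altered few features and gave all of them 1 common dispersion. In the data 84.1% of tested peaks were called, so these rates may not hold there. Alternatives were other scalings, filters, DESeq2 1.42.0, voom in limma 3.58.1, thinning, window sizes, a replicate block and each library left out. Figures used matplotlib 3.10.9.

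Named features followed a rule: on chromosome 29 the 10 highest and 10 lowest folds of called peaks whose mean count reached 50 and whose groups did not overlap, the 5 highest mean CPM, the 3 folds nearest 0 in the strongest 25%, and the 3 highest, 3 lowest and 3 most peak-rich windows of 1 Mb. Steps 2, 18 and 25, runs, stretches of 14 steps and adjacent pairs were added after values were seen. The chromosome, its peaks and the rules were chosen with earlier results of these data known.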

Additional observations from a re-analysis of the deposited data

How the results depend on the processing

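Chromosome 29 kept the highest median log2 fold of the 38 numbered chromosomes under every alternative tried. It was chosen for that place in the same libraries, so this outcome was largely fixed in advance. Its lead narrowed under loess offsets, where 0.18 was followed by 0.11 on chromosome 33. In the main fit 0.76 was followed by 0.51 on chromosome 32. Of 166 alternatives for the chromosome's counts, medians and place, 148 stayed within 1.5 times the count or within the spread between the library letters. Under loess offsets 134 peaks gained at least 2-fold, with a median log2 fold of 0.18 and an excess of 0.28 over the other numbered chromosomes, in place of 227, 0.76 and 0.76. These offsets follow mean log2 CPM, which moves with the fold. Thinning all libraries to the shallowest total gave a median of 0.67 and an excess of 0.69, and leaving out the 3 windows of highest fold 0.67 and 0.68. With a library left out the median ranged from 0.68 to 0.77 and the excess from 0.67 to 0.78. A bound of 4-fold left 105 peaks higher and 29 lower. Windows called lower numbered 3 by library size alone and 11 under loess offsets. In windows of 500 kb, 32 were called, 25 of them higher, and in windows of 5 Mb 8 were called, 6 higher and 2 lower, as more or fewer windows were tested.

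The 20 peaks with the largest gains and losses kept direction and call in all 300 alternatives, with log2 folds of 1.10 to 4.50 for the gains and -6.70 to -2.32 for the losses, and the 8 named windows in all 80. These peaks were picked as called, separate and extreme in the same libraries, so for them this outcome was nearly fixed in advance. Strong peaks near equality changed sign. Under loess offsets the peak from 16235717 had 0.16, that from 21810152 0.14 and that from 24960576 0.065. Of the uncalled peaks, that from 307568 ranged from -0.061 to 0.11 with a library left out (-0.030 without mature B, -0.061 without reseeded A) and had -0.055 after thinning, that from 1156583 ranged from -0.16 without mature B to 0.25 without mature A (-0.024 without reseeded A), and that from 40435961 from -0.051 without reseeded B to 0.054 without reseeded A (-0.015 without mature B), with -0.36 after thinning. The cause was not tested. With the letter as a replicate block, 464 peaks of the chromosome were called in place of 471, with a median of 0.74, and no named call changed. The letters did not show pairing: the A to B differences of mature and of reseeded libraries had a correlation of 0.031 over all peaks. Small folds at peaks of few mature counts are limited by depth.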

Other observations

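Neighbouring peaks of chromosome 29 also switched in opposite directions, as examined after the data were seen. In 35 adjacent pairs one peak was at least 2-fold higher and the other at least 2-fold lower, and in 12 of these the midpoints were within 20 kb. Such pairs were not counted here on the other chromosomes, so they are not given as a trait of this one. An excess over what its shares of gained (42.4%) and lost (9.91%) peaks would give was not tested. The closest pair lay in step 17. Its peak from 16104240 to 16104740 went from 5.68 and 5.99 CPM in mature A and B to 13.5 and 13.7 CPM in reseeded A and B, a log2 fold of 1.23 (SE 0.16). Its neighbour from 16105126 to 16105626, 0.886 kb away, went from 69.1 and 60.6 to 13.8 and 17.7 CPM, a log2 fold of -2.03 (SE 0.09). After reseeding both peaks stood at similar levels, having differed by over 10-fold in each mature library.

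In step 9 the peak from 8544271 to 8544771 went from 24.5 and 20.6 to 6.71 and 7.01 CPM, and the peak from 8545819 to 8546319, 1.55 kb away, from 1.39 and 1.94 to 13.2 and 10.4 CPM. The stronger of the pair was therefore a different peak in each state. The same held at 12071127 to 12071627, one of the 10 largest losses, whose neighbour from 12074760 to 12075260, 3.63 kb away, went from 1.62 and 2.11 to 12.1 and 14.0 CPM, a log2 fold of 2.84 (SE 0.22), and at the pair from 39303550 to 39304050 (2.55 and 2.11 to 17.2 and 13.7 CPM) and from 39305074 to 39305574 (25.9 and 24.6 to 7.24 and 7.75 CPM). In these pairs the groups did not overlap at either peak.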
